A study of Homo sapiens with 24 samples.

Results

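The arrays collected 24 h after replating were compared with the arrays collected 4 h after replating, in HepaRG cells seeded sparsely to induce reprogramming. All arrays of these 2 times were taken, 3 at each time, 6 of the 24 arrays of a time course with 8 times. HepaRG is a human liver cell line. Confluent cultures form hepatocyte-like and biliary-like cells, and at low density the hepatocyte-like cells return to growth. All groups shared the same history. The cells had grown for 2 weeks in William's E medium with serum, antibiotics, insulin and hydrocortisone hemisuccinate, and for 2 further weeks with 2% DMSO added. Hepatocyte-like cells had then been lifted off selectively by mild trypsin treatment and replated sparsely. The model is limited to 1 cell line, and the labels do not say whether the 3 replicates of a time came from separate cultures. The p-values thus rest on the spread among these arrays alone, and part of that spread may be technical.

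A resting cell that is called back to division first passes through an early response, in which transcription factors and their inhibitors are made within minutes to hours. It then copies its DNA, for which E2F transcription factors switch on the enzymes of nucleotide and DNA synthesis, and finally divides, for which a later wave of genes encodes cyclins, kinases and spindle proteins. The promoters of the mitotic genes are known for a short element named CHR, bound by the DREAM and MuvB complexes, and for CCAAT boxes, bound by NF-Y. Hepatocytes in culture are known to lose enzymes of detoxification and amino acid metabolism as they leave their differentiated state.

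The promoters of 4 genes with large rises are printed to show these elements, 2 from the list of G2/M and mitotic genes and 2 from the list of G1/S and DNA replication genes. They were chosen because they hold the element, so they are examples and not evidence. Each window runs from 250 bases before to 50 bases after the start of the gene, 5′ to 3′, from RefSeq on GRCh38.p14. Capitals mark, in the mitotic pair, the CHR element TTTGAA and the CCAAT box on either strand, and in the replication pair the E2F cores TTCCCGC together with its variants TTCGCGC and lastly TTGGCGC, on either strand. CDCA8 lies at chr1:37692266-37692565 on the plus strand, where the CHR element and 1 reverse CCAAT box share a base. HJURP lies at chr2:233854486-233854785 on the minus strand, DTL at chr1:212035498-212035797 on the plus strand, and GINS2 at chr16:85688905-85689204 on the minus strand.
CDCA8: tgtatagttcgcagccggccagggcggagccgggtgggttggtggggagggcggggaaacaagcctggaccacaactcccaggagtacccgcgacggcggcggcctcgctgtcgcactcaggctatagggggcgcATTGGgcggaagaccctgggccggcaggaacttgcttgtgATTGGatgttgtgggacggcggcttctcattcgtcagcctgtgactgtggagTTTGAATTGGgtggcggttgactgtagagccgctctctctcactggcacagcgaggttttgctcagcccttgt
HJURP: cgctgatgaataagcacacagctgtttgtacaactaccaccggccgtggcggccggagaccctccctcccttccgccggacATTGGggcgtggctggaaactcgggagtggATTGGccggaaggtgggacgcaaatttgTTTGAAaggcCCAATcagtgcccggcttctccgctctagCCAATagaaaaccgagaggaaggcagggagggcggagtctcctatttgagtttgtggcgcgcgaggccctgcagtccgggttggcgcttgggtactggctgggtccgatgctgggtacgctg
DTL: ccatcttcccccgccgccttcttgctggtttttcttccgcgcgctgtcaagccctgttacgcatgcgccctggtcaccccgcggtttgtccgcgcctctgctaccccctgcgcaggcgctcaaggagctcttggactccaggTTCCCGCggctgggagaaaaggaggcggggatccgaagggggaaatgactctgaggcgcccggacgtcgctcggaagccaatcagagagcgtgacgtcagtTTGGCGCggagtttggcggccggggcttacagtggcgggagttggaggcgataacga
GINS2: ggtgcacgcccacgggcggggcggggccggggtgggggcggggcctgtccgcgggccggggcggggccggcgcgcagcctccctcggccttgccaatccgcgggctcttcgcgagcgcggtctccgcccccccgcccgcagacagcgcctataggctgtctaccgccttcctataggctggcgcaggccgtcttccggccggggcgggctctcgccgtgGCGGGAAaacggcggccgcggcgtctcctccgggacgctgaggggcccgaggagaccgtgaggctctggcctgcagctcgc

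Over the promoters that the RefSeq table holds, the elements were spread unevenly between the lists. An E2F core stood in 33 of the 45 windows of G1/S and DNA replication genes tested, 73.3%, and in 33.3% of the 63 windows of G2/M and mitotic genes tested. The CHR element stood in 61.9% of the mitotic windows, 39 of 63, and in 6.67% of the replication windows. CCAAT boxes were found in 71.4% of the mitotic and 53.3% of the replication windows. Among all 27305 promoters of the table the shares were 11.2% for an E2F core, 15.4% for the CHR element and 35.7% for a CCAAT box. Among the 671 genes called higher at 24 h that had a window the shares were 26.4%, 19.2% and 46.8% in the same order, and among the 577 called lower they were 12.7%, 12.1% and 36.4%. All genes tested, of which 8116 had a window, gave 17.2%, 10.2% and 37.4%. A match of letters is a description and not a binding site.

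Quality was compared between the arrays of both times. The median signal of an array was 119, 122 and 102 at 24 h, against 126, 125 and 114 at 4 h (exact permutation test, two-sided, p = 0.5; with 3 against 3 arrays p cannot go below 0.1). The 3′/5′ ratio of the ACTB control probe sets, which is higher for degraded RNA, was 1.30, 1.52 and 1.24 at 24 h and 1.34, 1.73 and 2.12 at 4 h (exact permutation p = 0.2). For GAPDH the ratio was 1.03, 1.49 and 0.93 at 24 h and 0.91, 1.07 and 1.08 at 4 h (exact permutation p = 0.8). Its mean was higher at 24 h, while that of ACTB was higher at 4 h. The share of probe sets with a signal under the pseudocount was 20.4%, 20.95% and 22.8% at 24 h, against 18.1%, 18.4% and 20.5% at 4 h (exact permutation p = 0.2). With so few arrays these tests do not show that quality was alike, and the part of such differences in the results was not tested. Across genes, arrays of the same time correlated at 0.946 to 0.955 and arrays of the 2 different times at 0.885 to 0.889. The 6 hepatocyte markers measured summed to signals of 129800 to 153900 at 24 h, against 238400 to 270100 at 4 h. Hepatocyte transcripts were thus measured at both times. Of these markers APOB and CYP3A4 were called lower at 24 h, and ALB, APOA1, TTR and SERPINA1 were not called. Cholangiocyte markers summed to 12320 to 17870 at 24 h and 17840 to 23970 at 4 h. Summed signals were 1568 to 2020 at 24 h and 1125 to 1606 at 4 h for the 7 stellate and fibroblast markers, 147 to 210 and 160 to 290 for endothelial markers, of which 1 of 5 passed the filter on dim probe sets, and 280 to 330 and 313 to 398 for lymphocyte markers. Macrophage markers summed to 239 to 412 at 24 h and 622 to 655 at 4 h, and erythroid markers to 46.1 to 53.5 and 72.4 to 112. MARCO, CSF1R and PTPRC, of the macrophage markers, and EPCAM and CFTR, of the cholangiocyte markers, were below the filter, and no marker was at 0.

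In the comparison of 24 h with 4 h, 797 of the 9966 genes tested were higher (8.00%) and 734 were lower (7.37%). A gene was called at a Benjamini-Hochberg adjusted p under 0.05 in limma and a difference of at least 2-fold, on the scale of log2(signal + 18), which understates the change of dim genes. Of the genes called higher, 774 had 3 values at 24 h above all 3 values at 4 h, and of those called lower 712 had none of their values overlapping. Over all genes tested, 41.3% had no overlap. At least 4-fold differences were found for 172 of the genes called higher and 158 of those called lower, and at least 8-fold differences for 40 and 30. The median log2 change of all genes was 0.005.

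The largest rises at 24 h were mainly of cell division genes, and the largest falls included many genes of liver metabolism. Immediate early genes were also often lower, though none was among the 15 largest falls. In bulk samples, fewer cells of a type and less RNA of a gene per cell cannot be told apart. The share of members called in each list is shown in the plot of list members.

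**Figure D1:**
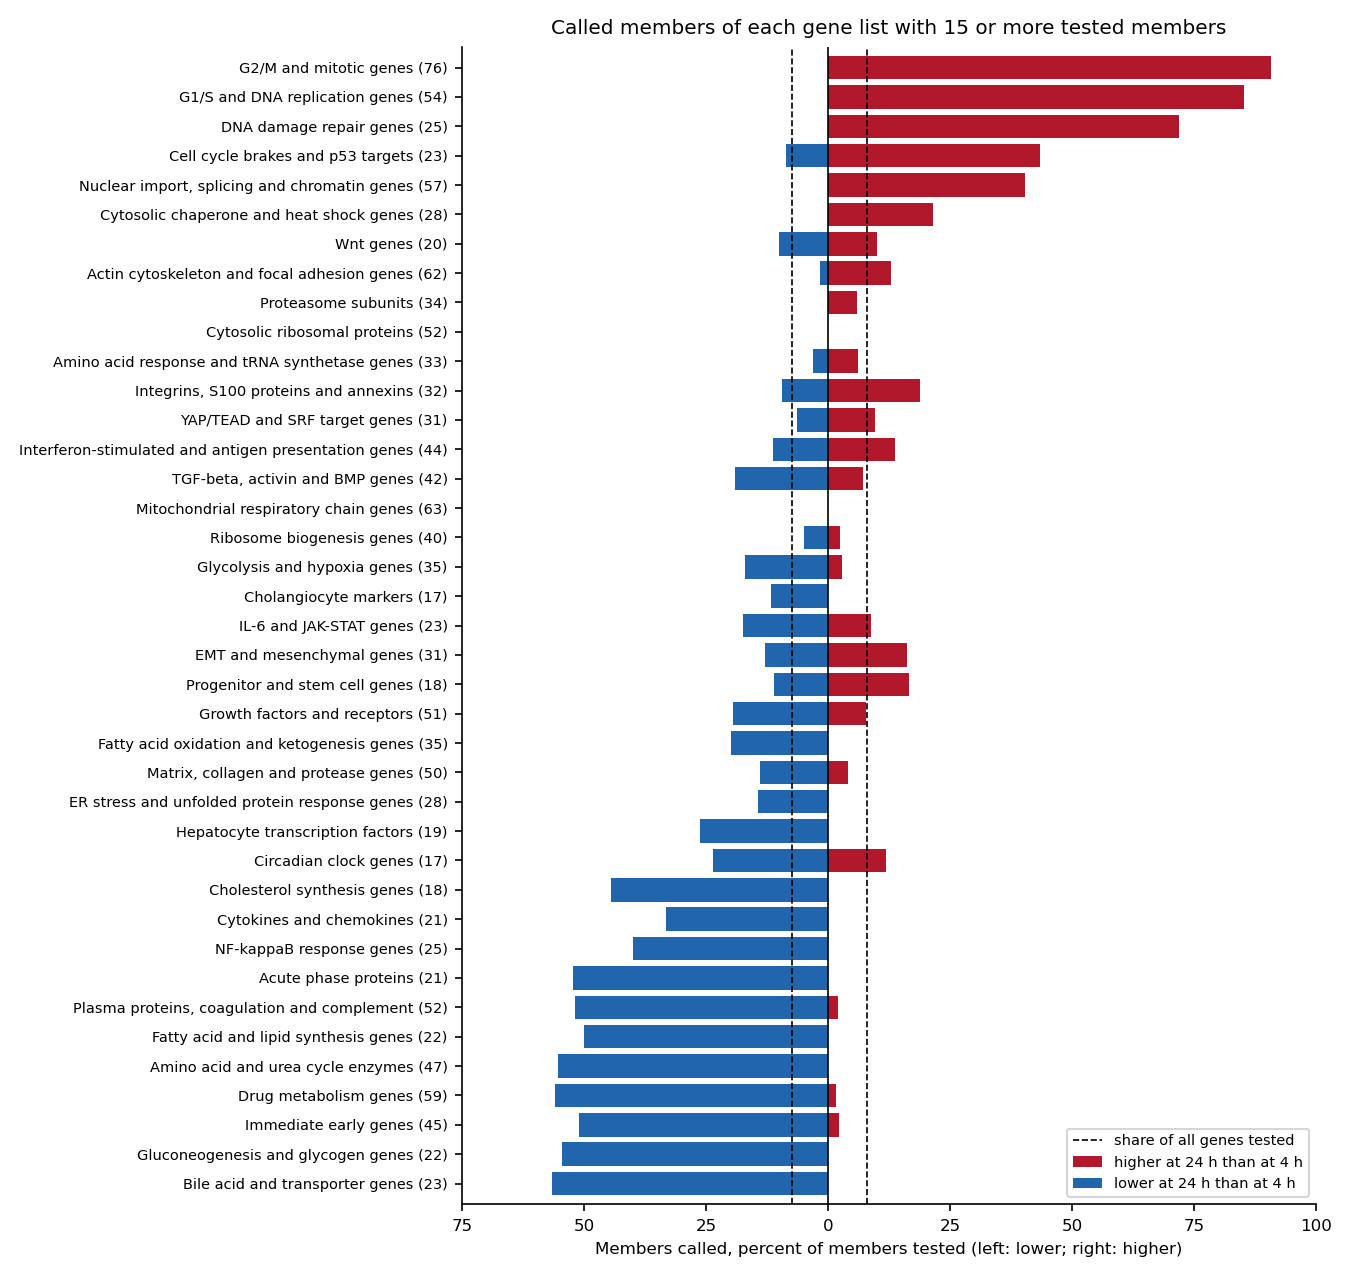
Members called higher (right, red) and lower (left, blue) at 24 h than at 4 h in each gene list with 15 or more tested members, as percent of the members tested, with the number tested in brackets; dashed lines mark 8.00% and 7.37%, the shares over all 9966 genes. Cell cycle lists reach furthest to the right, with 69 of 76 and 46 of 54 members higher, and the lists of liver function and of immediate early genes reach furthest to the left.

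Mitotic genes rose nearly as a whole list. Of the 76 G2/M and mitotic genes tested, 69 were called higher and 0 lower, with a median log2 change of 2.47, and the 7 others had changes of 0.09 to 1.35. CDCA8, a subunit of the chromosomal passenger complex that corrects chromosome attachment, had signals of 939, 1296 and 1122 at 24 h, against 26.5, 35.1 and 32.1 at 4 h. All 3 arrays of 24 h lay far above all 3 of 4 h, a log2 change of 4.52 ± 0.26 (SE; n = 3 arrays at each time here and below; adjusted p = 4.5e-15). Each SE comes from the limma fit, which estimates the spread over all 24 arrays. It is not the spread of the printed values alone. CCNB1, the cyclin B1 that activates CDK1 at entry into mitosis, had signals of 2492, 1997 and 2336 at 24 h, against 186, 138 and 205 at 4 h, a log2 change of 3.57 ± 0.17. CDK1 itself had signals of 4952, 4466 and 5684 at 24 h, against 738, 801 and 424 at 4 h, with a log2 change of 2.95 ± 0.21. For both genes the groups were far apart and the spread within a time was small. HJURP, the chaperone that loads the centromeric histone, had signals of 697, 832 and 852 at 24 h, against 113, 9.83 and 13.8 at 4 h. Replicate 1 of 4 h was higher than the others. The log2 change was 4.05 ± 0.43, an error that also rests on the arrays of the other times.

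CDC20, the activator of the ubiquitin ligase that ends mitosis, had a log2 change of 3.84 ± 0.20, and TOP2A, the topoisomerase that untangles sister chromosomes, one of 3.23 ± 0.25. The kinesins KIF2C and KIFC1 rose by 3.63 and 3.57 on the log2 scale, the spindle protein TACC3 by 4.14 and the kinetochore motor CENPE by 3.89. The other probe set of KIF2C gave 0.99, just short of 2-fold. At 4 h the signals of CENPE were 15.6, 7.49 and 3.28, below the pseudocount of 18, so the size of its change depends on that constant. AURKA, the spindle pole kinase, rose by 4.43 on the probe set with its highest signal, but the 2 other probe sets of the gene gave log2 changes of -0.09 and up to 3.02, and the call was lost when probe sets with names ending in _x_at or _s_at were left out. MKI67, the proliferation marker, had a log2 change of 1.16 ± 0.25, with 0.49 to 1.88 on its 3 other probe sets, and of 0.97 without replicate 1 of 4 h.

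Replication genes rose too. Of the 54 G1/S and DNA replication genes tested, 46 were called higher and 0 lower, with a median log2 change of 1.75. DTL, which directs the licensing factor CDT1 to degradation, had signals of 1153, 1195 and 1554 at 24 h, against 107, 141 and 125 at 4 h, a log2 change of 3.21 ± 0.26. GINS2, a subunit of the replicative helicase, had signals of 1501, 1492 and 1512 at 24 h, against 199, 169.6 and 126 at 4 h, a log2 change of 3.08 ± 0.18. Its arrays of 24 h were almost equal and all above those of 4 h. GINS1 rose by 3.04, and POLE2, a subunit of DNA polymerase epsilon, by 3.04 as well. CCNE2, the cyclin E2 that drives entry into DNA synthesis, rose by 2.16 ± 0.24. The 8 genes not called included CCNE1, E2F3 and CDT1, with log2 changes of 0.39, 0.22 and 1.07; those 3 genes were picked after their values were seen.

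**Figure D2:**
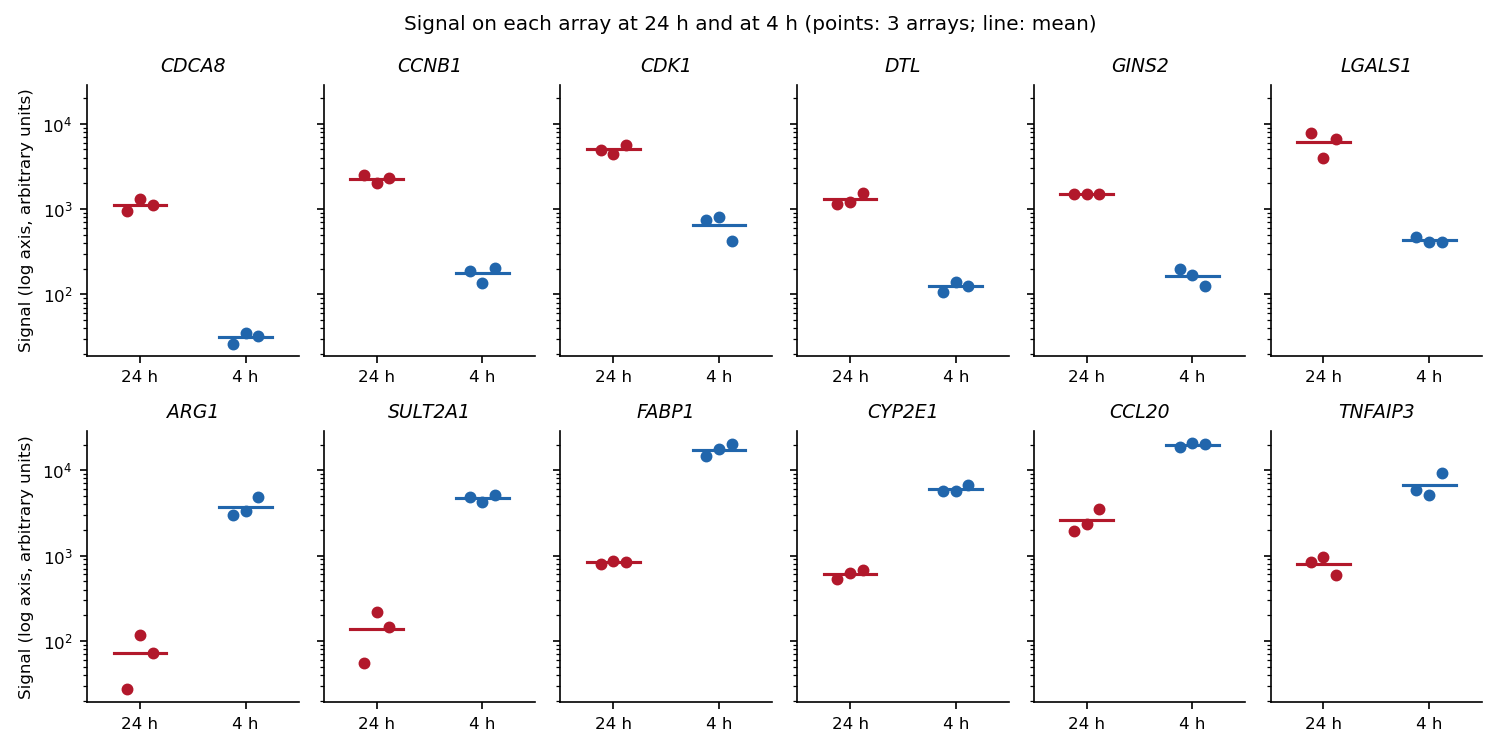
Signal on each array at 24 h (red, left) and 4 h (blue, right) for 12 genes on a log axis; points are the 3 arrays of a time and the short line is their mean. The upper row shows genes higher at 24 h and the lower row genes lower at 24 h, and in none of the 12 do the groups overlap.

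The timing of the changes was then compared within the interval. The interval was divided at 12 h, and the difference between the change from 12 to 24 h and the change from 4 to 12 h was tested in limma at an adjusted p under 0.05. Over all genes this contrast was positive for 3.91% and negative for 3.10%. A called gene is termed later-weighted where its change was larger in the part from 12 h, which lasts 12 h, and earlier-weighted where it was larger in the part before, which lasts 8 h. Of the called members of the G2/M and mitotic list, 19 were later-weighted and 1, CDC25A, was earlier-weighted, at 2.70 from 4 to 12 h and 0.42 from 12 to 24 h. Of the replication genes called, 3 were later-weighted, namely E2F8, RRM1 and RRM2, and 11 were earlier-weighted, namely CDC6, MCM2, MCM3, MCM5, MCM6, MCM10, ORC6, POLD3, FEN1, DTL and DNMT1. Most called members, 49 of 69 mitotic and 32 of 46 replication genes, passed in neither direction, and the difference between the lists was not tested. The median log2 change of the mitotic list was 0.69 from 4 to 12 h and 1.75 from 12 to 24 h, and that of the replication list was 1.24 and 0.57 in the same parts.

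Single genes illustrate the weightings. NUSAP1, which bundles spindle microtubules, had mean signals of 702, 443 and 3491 at 4, 12 and 24 h, so its log2 change was -0.65 in the first part and 2.94 in the second. CCNA2, the cyclin A2 of DNA synthesis and mitosis, had means of 209, 328 and 1447 at those times. DTL had means of 124, 1030 and 1301, with log2 changes of 2.87 and 0.34. CCND1, the cyclin D1 that answers growth signals, had means of 666, 1452 and 806, so that it was highest in the middle. It was not called between 24 h and 4 h, at a log2 change of 0.27 ± 0.17 (adjusted p = 0.25). These weightings depend on the arrays of 12 h. The replication genes called earlier-weighted numbered 5, 5 and 7 without replicate 1, 2 or 3 of 12 h, and the mitotic genes called later-weighted numbered 13 to 21 over the arrays of 4, 12 and 24 h left out in turn. The later-weighted replication genes numbered 1 without replicate 3 of 12 h, and the earlier-weighted mitotic genes 0 without replicate 1 or 3 of 12 h or replicate 3 of 4 h, and 2 without replicate 2 of 4 h.

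**Figure D3:**
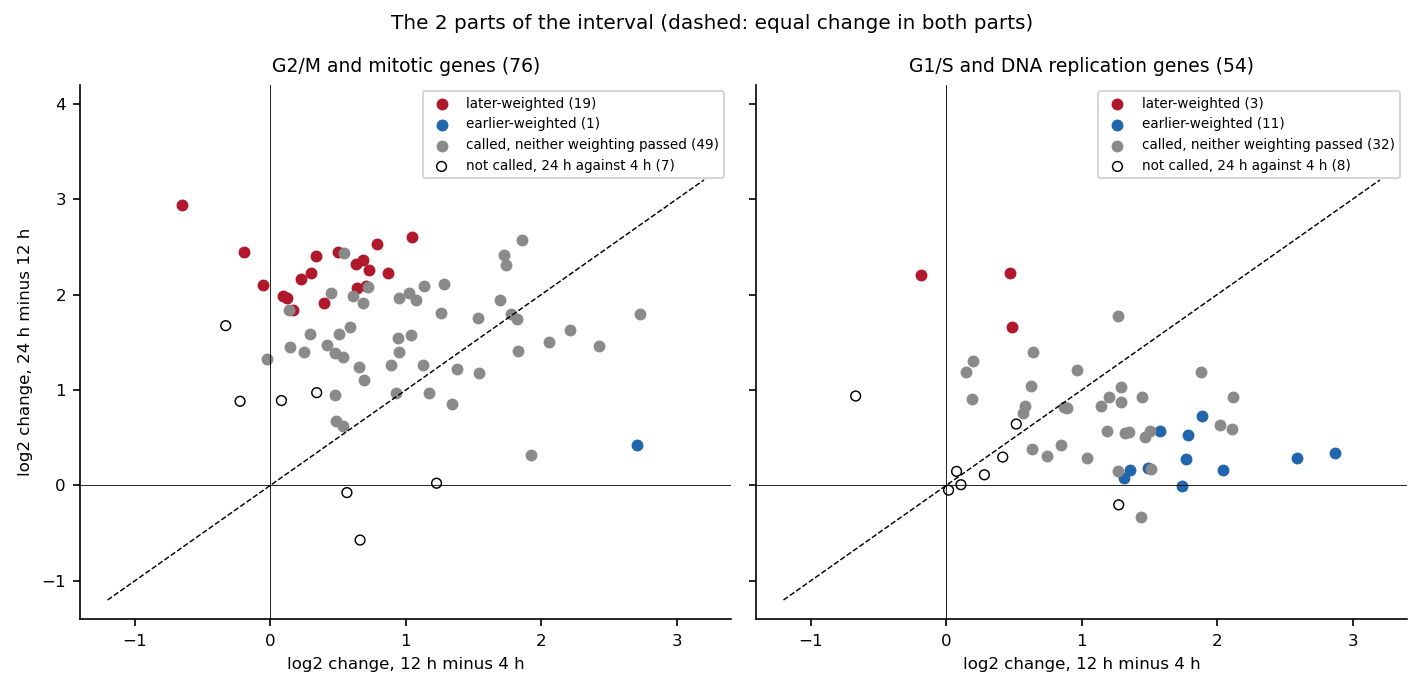
Log2 change from 4 to 12 h (x axis) and from 12 to 24 h (y axis) for the 76 G2/M and mitotic genes (left) and the 54 G1/S and DNA replication genes (right); filled points are genes called at 24 h against 4 h, open points are not called, and the dashed line marks equal change in both parts. Later-weighted mitotic genes (19) lie above the line and earlier-weighted replication genes (11) lie below it.

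Lists of DNA repair, chromatin and cell cycle control also held many genes called higher. Of 25 DNA damage repair genes, 18 were called higher and 0 lower, with a median log2 change of 1.73. BARD1, the partner of BRCA1, rose by 3.09 ± 0.33 and was earlier-weighted, and FANCI, of the Fanconi anaemia pathway, rose by 2.69 ± 0.28 and was later-weighted. Of 57 genes of nuclear import, splicing and chromatin, 23 were called higher, 0 lower and 34 in neither direction, led by EZH2, the histone methyltransferase of Polycomb, at 3.03 ± 0.26. EZH2 had signals of 877, 1110 and 1061 at 24 h, against 140.3, 134 and 64.4 at 4 h. Among 23 cell cycle brakes and p53 targets, 10 were called higher (43.5%) and 2 lower (8.70%), against 8.00% and 7.37% over all genes. With a pseudocount of 73.8, 5 were higher. SESN1 and ZMAT3, both p53 targets, rose by 1.79 ± 0.17 and 1.56 ± 0.20. CDKN1A, the p21 inhibitor of cyclin-dependent kinases, had signals of 4036, 4165 and 3379 at 24 h, against 1573, 2011 and 2118 at 4 h. Its log2 change of 1.02 ± 0.13 lay at the 2-fold threshold and was 0.99, 0.96 and 0.89 without replicate 1 of 24 h, replicate 2 of 24 h or replicate 1 of 4 h. PLK3, a stress kinase, and GADD45B, a stress response gene, were the 2 members called lower, at -1.98 ± 0.46 and -1.26 ± 0.16. The other probe set of PLK3 gave -0.78. For GADD45B the 3 other probe sets gave -0.89 to -0.55, and its call was lost without _x_at and _s_at probe sets.

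The levels of these lists at all times place the interval. The median level of the mitotic list, as log2(signal + 18), over 0, 4, 12, 16, 24 and 48 h was 7.70, 7.17, 7.90, 8.18, 9.57 and 9.79. Over the same times the replication list stood at 8.29, 7.63, 8.85, 9.34, 9.60 and 9.16. Both lists were at their lowest of the 8 times at 4 h, and CDCA8, with a mean signal of 226 at 0 h and 31.3 at 4 h, is an example. A comparison with 4 h thus starts from a low point for these genes, and CDCA8 averaged 1119 at 24 h.

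**Figure D4:**
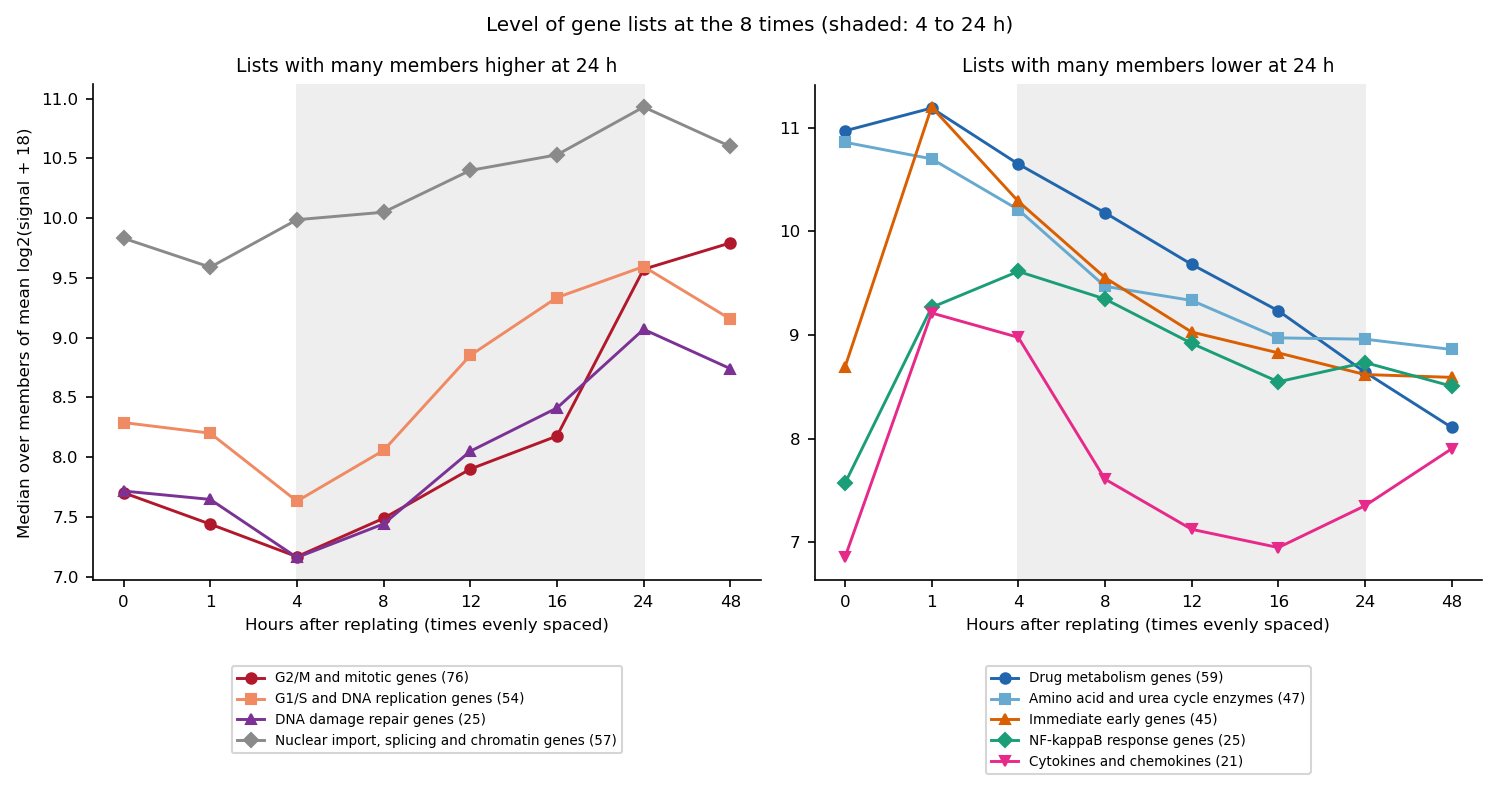
Median level over the members of 9 gene lists at the 8 times, as log2(signal + 18) averaged over 3 arrays, with the interval from 4 to 24 h shaded. Mitotic genes stand at 9.57 at 24 h and 7.17 at 4 h, while drug metabolism genes stand at 8.64 and 10.65 and immediate early genes at 8.62 and 10.29 at the same times.

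The 15 largest rises also held LGALS1, POSTN, IGF2BP3 and AGR2, which belong to neither cell cycle list. LGALS1, the secreted lectin galectin-1, had signals of 7869, 3950 and 6701 at 24 h, against 476, 417 and 415 at 4 h. Replicate 2 of 24 h was lower than the others but lay far above 4 h, and the log2 change was 3.71 ± 0.19. POSTN, the matrix protein periostin, had signals of 4016, 4011 and 3613 at 24 h, against 326, 277 and 316 at 4 h, a log2 change of 3.59 ± 0.17 that was earlier-weighted. IGF2BP3, an RNA-binding protein of fetal tissue and tumours, rose by 3.73 ± 0.41, with 1.41 to 2.78 on its 2 other probe sets. AGR2, a protein disulphide isomerase of secretory epithelia, averaged 349 at 24 h and 9.89 at 4 h and went on to 1850 at 48 h. ANXA3, a membrane-binding annexin, averaged 1868 at 24 h and 209 at 4 h, and its rise of 3.06 ± 0.23 was earlier-weighted. AFP, the fetal serum protein of the liver, had signals of 463, 462 and 434 at 24 h, against 169, 123 and 111 at 4 h, a log2 change of 1.64 ± 0.28.

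Most chaperone and cytoskeleton genes were not called. Of 28 cytosolic chaperone and heat shock genes, 6 were called higher (21.4%, against 8.00% over all genes) and 0 lower. HSPB1, a small heat shock protein that binds actin, averaged 10660 at 24 h and 2292 at 4 h, a log2 change of 2.22 ± 0.16. CCT4 and CCT6A, subunits of the chaperonin that folds actin and tubulin, rose by 1.14 and 1.17. Of 62 genes of the actin cytoskeleton and focal adhesions, 8 were called higher (12.9%, against 8.00% over all genes), 1 lower and 53 in neither direction. The median log2 change of this list was 0.39, against 0.005 over all genes, with 50 members above 0 and 12 below. At the adjusted p alone 27 of the 62 were higher, against 1762 of all 9966 genes. TUBA1A, an alpha-tubulin, rose by 1.95 ± 0.20, while RHOB, a small GTPase of endosomes and stress fibres, fell by 1.87 on the log2 scale. VIM, the intermediate filament of mesenchymal cells, was dim, with signals of 39.1, 80.6 and 95.9 at 24 h, against 15.6, 10.0 and 10.2 at 4 h. Its log2 change of 1.53 ± 0.54 passed the test at an adjusted p of 0.027, but did not pass without replicate 2 or 3 of 24 h, or replicate 2 or 3 of 4 h (1.43, 1.33, 1.49 and 1.49, adjusted p 0.08, 0.11, 0.064 and 0.064).

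Liver genes led the largest falls. ARG1, the arginase that ends the urea cycle, had signals of 27.5, 118 and 71.5 at 24 h, against 2975, 3359 and 4833 at 4 h. All 3 arrays of 24 h lay far below those of 4 h, a log2 change of -5.48 ± 0.27 (adjusted p = 1.5e-16). SULT2A1, which sulphates bile acids and steroids, had signals of 54.8, 217 and 147 at 24 h, against 4809, 4249 and 5146 at 4 h, a log2 change of -5.07 ± 0.24. FABP1, the fatty acid carrier of hepatocytes, had signals of 796, 865 and 833 at 24 h, against 14530, 17590 and 20270 at 4 h, with a log2 change of -4.35 ± 0.20. ADH1B, an alcohol dehydrogenase, and GLYAT, which conjugates acyl groups to glycine, had log2 changes of -4.61 and -4.21. AQP9, the glycerol and urea channel of hepatocytes, fell by 3.87.

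The lists of liver function lost members in the same direction. Of 47 amino acid and urea cycle enzymes, 26 were called lower and 0 higher, with a median log2 change of -1.08. CTH and GNMT, of sulphur amino acid metabolism, and AASS, of lysine breakdown, had log2 changes of -3.14, -2.91 and -2.77. Of 59 drug metabolism genes, 33 were called lower and 1 higher. CYP2E1, a cytochrome P450 that oxidizes ethanol, had signals of 530, 630 and 669 at 24 h, against 5692, 5766 and 6653 at 4 h, a log2 change of -3.27 ± 0.25 that was later-weighted, with -3.55 to -3.32 on its 2 other probe sets. CYP3A4, the major drug-oxidizing P450 of liver, averaged 2496 at 24 h and 33770 at 4 h, but its probe set may cross-hybridize with related P450 transcripts and the value is uncertain, since other probe sets of the gene gave -3.89 to -0.35. NAT1, an arylamine acetyltransferase, was the member called higher, at 1.14 ± 0.20.

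Transport and fuel genes were called lower in over 50% of each list. Of 23 bile acid and transporter genes, 13 were called lower and 0 higher, among them SLC10A1, the bile acid uptake carrier NTCP, at -2.42 ± 0.26, and MTTP, which loads lipid onto lipoproteins, at -2.43 ± 0.22. Of 22 gluconeogenesis and glycogen genes, 12 were called lower and 0 higher. PCK1, the cytosolic enzyme that commits carbon to glucose synthesis, had signals of 4.07, 4.18 and 8.65 at 24 h, against 179, 159.6 and 179 at 4 h, a log2 change of -3.02 ± 0.42. Its signals at 24 h lay below the pseudocount. G6PC1, the glucose-6-phosphatase that releases glucose, fell by 2.83 on the log2 scale, and both genes were earlier-weighted. PCK2, the mitochondrial enzyme, fell by 2.53.

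Calls among the lipid genes were all in the lower direction, but many members were not called. Of 22 fatty acid and lipid synthesis genes 11 were called lower, and of 18 cholesterol synthesis genes 8, with 0 called higher in either list. Without _x_at and _s_at probe sets, 2 of 10 cholesterol synthesis genes were lower. MLXIPL, the carbohydrate-sensing factor ChREBP, fell by 2.98, and HMGCS1, which makes the precursor of mevalonate, fell by 1.78. PLIN2, the coat protein of lipid droplets, averaged 3762 at 24 h and 16660 at 4 h, and had already reached 4038 at 12 h; its other probe set gave -0.52. G0S2, an inhibitor of lipid droplet lipolysis, had signals of 627, 450.4 and 433 at 24 h, against 6465, 6213 and 6314 at 4 h, a log2 change of -3.62 ± 0.20. Fatty acid oxidation and ketogenesis genes numbered 35, with 7 called lower, 0 higher, 28 in neither direction and a median of -0.30, led by BDH1, of ketone body formation, at -2.81 ± 0.31.

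Plasma protein genes were also often lower. Of 52 plasma protein, coagulation and complement genes, 27 were called lower and 1, AFP, higher, and of 21 acute phase proteins 11 were called lower and 0 higher. APOB, the scaffold of very low density lipoprotein, averaged 1327 at 24 h and 6800 at 4 h, a log2 change of -2.34 ± 0.19. C3, the central complement protein, fell by 1.45 and FGA, a fibrinogen chain, fell by 1.54. ALB, serum albumin, had signals of 43590, 49360 and 36160 at 24 h, against 59160, 58000 and 55840 at 4 h. Its groups did not overlap, but the log2 change of -0.43 ± 0.14 (adjusted p = 0.017) was below the fold threshold, and its other probe sets gave -0.55 to 0.53. Among 19 hepatocyte transcription factors, 5 were called lower (26.3%, against 7.37% over all genes) and 0 higher. Without replicate 3 of 24 h, 3 were called lower. NR1I3, the xenobiotic receptor CAR, fell by 3.16 ± 0.45, with signals of 21.8, 11.2 and 56.9 at 24 h, against 399.7, 368 and 368 at 4 h. CEBPA, a factor of the differentiated hepatocyte, was dim at both times and not called, at 0.54 ± 0.35.

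Many early response genes were lower at 24 h. Of 45 immediate early genes, 23 were called lower and 1 higher, with a median log2 change of -1.13. DUSP5, a phosphatase that inactivates ERK, had signals of 254.5, 325 and 382 at 24 h, against 4292, 3390 and 3187 at 4 h, a log2 change of -3.43 ± 0.34. FOSB, an AP-1 subunit, averaged 23.3 at 24 h and 334 at 4 h, and had reached 10.5 at 12 h, so that its change was earlier-weighted. FOS, another subunit, had a log2 change of -2.82 ± 0.43, and SPRY2, an inhibitor of receptor signalling, one of -2.84 ± 0.23. MYC, the growth-promoting transcription factor, had signals of 1312, 1749 and 1941 at 24 h, against 6131, 5073 and 4499 at 4 h, a log2 change of -1.65 ± 0.21. EGR1 had a log2 change of -0.95 ± 0.21 and was not called. It passed without replicate 3 of 24 h or replicate 3 of 4 h, at -1.10 and -1.01. CCN2, a matricellular target of YAP, was the member called higher, at 1.33 ± 0.19.

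Calls among inflammatory genes were also in the lower direction. Of 25 NF-kappaB response genes 10 were called lower, and of 21 cytokines and chemokines 7, against 7.37% over all genes. In either list 0 were called higher, against 8.00% over all genes. Without _x_at and _s_at probe sets, 6 of 14 NF-kappaB response genes and 4 of 14 cytokines and chemokines were lower. TNFAIP3, the A20 inhibitor of NF-kappaB, had signals of 831, 961 and 597.5 at 24 h, against 5932, 5100 and 9205 at 4 h, a log2 change of -3.03 ± 0.21. CCL20, a chemokine of epithelia, had signals of 1952, 2322 and 3557 at 24 h, against 18900, 20650 and 20420 at 4 h, a log2 change of -2.97 ± 0.29. NFKBIA, the inhibitor IkappaB-alpha, and ICAM1, an adhesion molecule, had log2 changes of -1.61 and -1.91. All but CCL20 of these 4 genes were earlier-weighted. CXCL8, the neutrophil chemokine IL-8, averaged 2255 at 24 h and 9996 at 4 h on a probe set that may cross-hybridize, so its value is uncertain. The log2 change was -2.06 there and -2.74 on its other probe set. CCL2 and IL6 were not called, at -0.83 ± 0.21 and -0.37 ± 0.29.

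The falling genes had different histories before 4 h. Mean signals over 0, 4 and 24 h were 4257, 3722 and 72.4 for ARG1 and 24340, 17460 and 831 for FABP1. KRT23, an epithelial keratin, had means of 127 at 24 h and 2038 at 4 h, and was lower at 0 h than at either. DHRS9, a retinol dehydrogenase, had means of 77.3, 2598 and 192 over the same 3 times, and CCL20 had means of 998.5, 19990 and 2611. MMP3, the matrix protease stromelysin-1, had means of 165, 8622, 9100 and 2084 over 0, 4, 8 and 24 h, and its fall was later-weighted. Genes lower at 24 h than at 4 h thus included genes already high at 0 h as well as genes far lower at 0 h than at 4 h. The sizes of their falls differed.

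**Figure D5:**
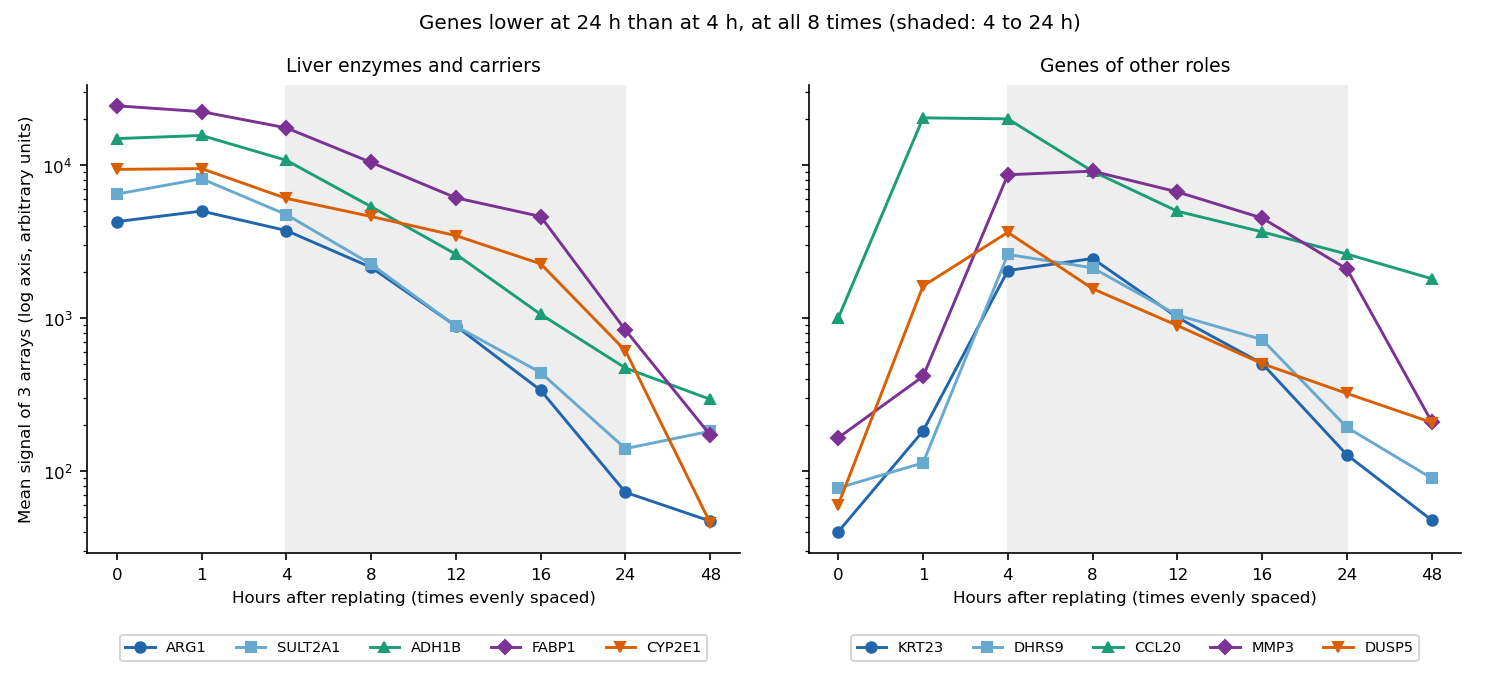
Mean signal of 3 arrays on a log axis at the 8 times for 10 genes lower at 24 h than at 4 h, with the interval from 4 to 24 h shaded. The 5 liver genes on the left were high at 0 h, such as FABP1 at 24340, while the 5 genes on the right were lower at 0 h than at 4 h, such as DHRS9 at 2598 at 4 h and 77.3 at 0 h.

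Most growth factor and matrix genes were not called. Of 51 growth factors and receptors, 4 were called higher (7.84%, against 8.00% over all genes) and 10 lower (19.6%, against 7.37%), and without _x_at and _s_at probe sets 4 of 37 were lower. EGFR, the receptor of epidermal growth factor, had signals of 479, 604 and 223 at 24 h, against 1614, 1819 and 1913 at 4 h, a log2 change of -2.09 ± 0.22 that was later-weighted, though its 2 other probe sets gave -2.01 to -0.07. VEGFA, the vascular growth factor, fell by 2.45 ± 0.23, with -2.11 to -1.28 on its 3 other probe sets. IGFBP1, a secreted binding protein of insulin-like growth factors, averaged 1275 at 24 h and 8371 at 4 h, and had reached 1102 at 8 h. AXL, a receptor tyrosine kinase, rose by 1.34 ± 0.33, and IGFBP7, a secreted binding protein, by 1.47 ± 0.17. Of 50 matrix, collagen and protease genes, 2 were called higher (4.0%) and 7 lower (14%), among them MMP3 at -2.05 ± 0.18 and MMP12, a macrophage elastase, at -2.29 ± 0.37. Of 42 TGF-beta, activin and BMP genes, 3 were called higher (7.14%) and 8 lower (19.05%). ID1, a BMP target that blocks differentiation factors, rose by 1.13 ± 0.15, while FST, the activin antagonist follistatin, and BMP2 had log2 changes of -1.70 and -1.56.

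Junction, biliary and mesenchymal genes were mostly not called, though calls in the mesenchymal list lay above the shares over all genes in both directions. SNAI2, a repressor of epithelial genes, had signals of 1662, 1723 and 2073 at 24 h, against 6845, 4273 and 4523 at 4 h, a log2 change of -1.48 ± 0.18. CLDN1, a tight junction protein, fell by 1.31 ± 0.18 and was earlier-weighted. CDH1, the epithelial cadherin, had signals of 289, 389.5 and 537 at 24 h, against 722, 724 and 746 at 4 h, and was not called, at -0.87 ± 0.25. Without replicate 3 of 24 h it passed at -1.08, but its other probe set gave -0.07 over all arrays. CDH2, KRT19, KRT7 and CD44 were not called, with log2 changes of 0.01, -0.25, 0.16 and -0.36 and overlapping groups. The 6 other probe sets of CD44 gave -1.97 to -0.11, and the other probe set of CDH2 gave -0.34. SOX9, a factor of biliary and progenitor cells, fell by 1.08 ± 0.17, and with each array centred on its median the change was -0.998, just short of 2-fold. Of 31 EMT and mesenchymal genes, 5 were called higher (16.1%, against 8.00% over all genes), 4 lower (12.9%, against 7.37%) and 22 in neither direction. Without replicate 2 of 24 h 3 were higher, as with a pseudocount of 73.8, with probe sets of a gene averaged and without _x_at and _s_at probe sets. Cholangiocyte markers numbered 17, with 2 called lower (11.8%, against 7.37% over all genes) and 0 higher. Integrins, S100 proteins and annexins numbered 32, with 6 called higher (18.75%) and 3 lower (9.38%), and 3 higher without replicate 2 of 24 h.

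Stress, metal and clock genes gave smaller counts. Metallothioneins, which bind zinc and copper, had 5 of 9 members called lower and 0 higher, but their probe sets may cross-hybridize within the family, and 0 of 3 were lower without _x_at and _s_at probe sets. Of 28 genes of the unfolded protein response, 4 were called lower (14.3%, against 7.37% over all genes) and 0 higher. ATF4, the factor of the integrated stress response, was among those lower, at -1.19 ± 0.13. Among 35 glycolysis and hypoxia genes, 1 was called higher (2.86%, against 8.00% over all genes) and 6 lower (17.1%, against 7.37%). Without _x_at and _s_at probe sets 1 of 17 was lower. TKT, a transketolase of the pentose phosphate pathway, was the one higher, at 1.22 ± 0.14, and NDRG1, a hypoxia-induced gene, fell by 1.76 ± 0.18. The clock factors HLF, with a log2 change of -2.53 ± 0.43, and BHLHE40, with -1.59 ± 0.19, were called lower. Of 17 clock genes 4 were called lower (23.5%) and 2 higher (11.8%), against 7.37% and 8.00% over all genes. The 2 higher were PER3, whose groups overlapped, and CSNK1E, and each lost its call in some fits with 1 array left out. Of those lower, BHLHE41 had overlapping groups, and with a pseudocount of 73.8 neither BHLHE41 nor RORA was called. Another probe set of HLF gave -0.81 and was not called.

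Interferon-stimulated and antigen presentation genes were called in both directions, 6 of 44 higher (13.6%, against 8.00% over all genes) and 5 lower (11.4%, against 7.37%). IFI44 and TRIM22 rose by 1.82 ± 0.23 and 1.495 ± 0.20, while HLA-DRA, a class II antigen-presenting chain, fell by 1.48 ± 0.25. CD14, a lipopolysaccharide co-receptor of macrophages that liver cells also make, had signals of 171, 195 and 238 at 24 h, against 438, 421 and 559.6 at 4 h, a log2 change of -1.16 ± 0.27, or -0.99 and no call with a pseudocount of 73.8. MRC1, the macrophage mannose receptor, had a log2 change of -2.72. CD14 and MRC1 were the 2 of 8 macrophage and Kupffer cell markers called lower, against 7.37% over all genes. The lower summed macrophage markers given above are not separate from CD14, which held the largest part of that sum. The mean signal of CD14 was 201.5 at 24 h and 472.9 at 4 h. Of the other markers in the sum, CD163 was not called, and MARCO, CSF1R and PTPRC were below the filter and not tested. The part of macrophages in these values was not tested.

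In 2 large lists no gene was called. Of 52 cytosolic ribosomal proteins and 63 mitochondrial respiratory chain genes, 0 were called in either direction by limma, with log2 changes of -0.30 to 0.92 and of -0.84 to 0.69. The median of the ribosomal proteins was 0.34 and that of the respiratory chain -0.06, against 0.005 over all genes. Of 40 ribosome biogenesis genes, 1 was called higher (2.5%), the rRNA methyltransferase FBL at 1.13 ± 0.12. In the same list 2 were called lower (5.0%), including the nucleolar helicase DDX21 at -1.203 ± 0.13. Both shares lay under the 8.00% and 7.37% over all genes. Proteasome subunits numbered 34, with 2 called higher (5.88%) and 0 lower.

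The median change of the called genes was spread over the interval, although single genes moved in some steps and not in others. The median log2 change of the genes called higher was 0.47, 0.38, 0.27 and 0.38 in the steps between 4, 8, 12, 16 and 24 h, and -0.12 in the step to 48 h. For the genes called lower it was -0.54, -0.34, -0.30, -0.39 and 0.01 in the same steps. Of the genes called higher, 50 were later-weighted, 74 were earlier-weighted and 673 passed in neither direction. Of those called lower, 24 were later-weighted, 95 earlier-weighted and 615 neither. TDO2, which opens tryptophan breakdown, had one of the 3 strongest earlier weightings among the falls. Its means were 8894, 962 and 1859 over 4, 12 and 24 h. CIDEC, a lipid droplet protein, had one of the 3 strongest later weightings, with means of 3640, 4989 and 1567 over the same times.

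A comparison inside the interval on other arrays, 16 h against 8 h, was made in the same fit. It called 203 genes higher (2.04%) and 171 lower (1.72%). The genes called higher in both comparisons numbered 170, which is 21.3% of the 797 and 83.7% of the 203. Those lower in both numbered 122, which is 16.6% of the 734 and 71.3% of the 171. In neither direction was a gene called the other way, 0 in each. Among the genes called at 24 h against 4 h, the median log2 change of 16 h against 8 h was 0.62 for those higher and -0.62 for those lower, against -0.03 over all genes. Of the replication list 34 of 54 members were called higher at 16 h against 8 h, and of the mitotic list 28 of 76.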

How the data were processed

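HepaRG cells were measured on a 1-colour Affymetrix 3′ expression array, with 24 arrays at 8 times. The authors deposited linear intensity values, 1 signal per probe set and array, made with MAS5 per the submitters' processing notes; its version is not given in the sources used here. The table holds no detection calls. Precision is limited by how many arrays were run.

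Signals were transformed to log2(signal + 18); the pseudocount is the 20th percentile over the table. Probe sets above the 40th percentile of their array on at least 3 arrays were tested, 17122 in all. Leaving out controls, the array has 22215 probe sets; the platform annotation gives 1 gene symbol to 19065, several to 1043 and none to 2107. For each gene the brightest tested probe set was kept, giving 9966 genes. In 763 of them that probe set's name ends in _x_at, which marks possible cross-hybridization.

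Contrasts of 24 h minus 4 h, of 16 h minus 8 h, and of the 2 parts of the interval were estimated by limma (version 3.58.1, R version 4.3.3) over all 24 arrays (lmFit, eBayes with trend, 16 residual degrees of freedom). Calls needed a Benjamini-Hochberg adjusted p under 0.05 over all genes, and for the first 2 contrasts a 2-fold difference. The fit was tested on simulated data. Genes were named by a rule: the 15 largest rises and falls without overlap, up to 4 called members of each of 46 lists in each direction, a set always named, and 3 genes of each direction with the strongest weighting to either part. The members and lists were chosen with earlier results of these data known, and some lists share members. Same-numbered replicates did not deviate together (correlations of -0.018, -0.0091 and -0.0074), so the numbers were not used as pairs. The sequences are from the RefSeq promoter table.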

Additional observations from a re-analysis of the deposited data

How the results depend on the processing

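The 2 counts of called genes stayed within 1.5 times of 797 higher and 734 lower under other pseudocounts, normalizations, filters, arrays and a fit without the trend. With the replicate number as a block, 797 were higher and 730 lower, 795 and 727 of them shared with the fit without the block, so the block ended few calls. Leaving out 1 array in turn gave 762 to 820 higher and 692 to 774 lower. Without probe sets ending in _x_at or _s_at, 6473 genes remained and 507 were higher and 463 lower. At the adjusted p alone, 1762 were higher and 1364 lower. For 16 h against 8 h, a larger pseudocount gave 122 higher and 109 lower, the probe set restriction 128 and 112, and single arrays left out 177 to 218 higher and 132 to 187 lower. Later-weighted genes numbered 74 and earlier-weighted genes 169; with 1 array of 4, 12 or 24 h left out they numbered 38 to 82 and 95 to 175. The lowest values came without arrays of 12 h: 38 without replicate 3 for later-weighted genes, and 95, 104 and 109 without replicates 1, 2 and 3 for earlier-weighted genes. Those 12 h settings, like those for 16 h against 8 h, were chosen after seeing the data. Without _x_at and _s_at probe sets the log2 change of AURKA was -0.0903 (adjusted p = 0.93) and that of S100A8 0.167 (adjusted p = 0.89), since other probe sets then stood for them; the cause of the other differences was not tested. Of 3659 values of named genes, 3517 kept direction and call, 137 lost the call, 3 gained it and 2 changed sign. Among the 551 counts of list members, 34 moved by over 1.5 times. Dim signals limit the falls of genes that ended below 18, whose size depends on the pseudocount.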
